A study of Mus musculus with 4 samples.

Results

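The Iroquois homeobox genes are a family of 6 transcription factor genes in the mouse, taken here by name: Irx1, Irx2, Irx3, Irx4, Irx5 and Irx6. Each was matched to a single gene among the 34547 genes that the transcript tables hold. They lie in a pair of clusters, IrxB (Irx3, Irx5 and Irx6, chromosome 8) and IrxA (Irx1, Irx2 and Irx4, chromosome 13). The family was selected on its estimated counts and TPM in the same comparison of HC with PC libraries, so the values of its members between the groups are a description and carry no p-value.

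RNA was sequenced from forelimb cartilage of C57BL/6 mouse embryos after laser microdissection of cryosections. Hypertrophic chondrocytes (HC, replicates 3 and 4) came from embryos at E15.5, and proliferating chondrocytes (PC, replicates 1 and 2) from embryos at E14.5. All 4 libraries are of 1 strain and carry no treatment or engineered allele in the labels, and cell state and embryonic day change together, so the 2 cannot be told apart. The labels do not say whether replicates came from separate embryos, so the spread between them may be technical.

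Iroquois proteins are DNA-binding regulators of the TALE class, whose homeodomain has a loop longer by 3 amino acids than that of other homeodomains. In vertebrates they act mostly as repressors and set up territories in the neural tube, heart, limb and skeleton. In the mouse limb bud, Irx3 and Irx5 act together in early skeletal patterning, and both have been described in hypertrophic chondrocytes of the mouse growth plate, where they favour the bone-forming over the fat-forming fate.

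The homeoboxes are printed because they show how alike the members are in the DNA-binding part and how far reads can tell them apart. Each run is the 189 bases (63 codons) of the homeobox from the GENCODE M21 transcripts (mm10), on the coding strand, 5′ to 3′. Capitals mark the 24 bases that encode the conserved core of the third helix, which contacts DNA. The members stand in pairs of 1 gene from each cluster.
Irx5: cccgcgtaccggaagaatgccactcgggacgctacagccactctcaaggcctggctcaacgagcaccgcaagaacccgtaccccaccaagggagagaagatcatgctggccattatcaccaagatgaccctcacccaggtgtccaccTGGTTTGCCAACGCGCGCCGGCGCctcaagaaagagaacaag
Irx2: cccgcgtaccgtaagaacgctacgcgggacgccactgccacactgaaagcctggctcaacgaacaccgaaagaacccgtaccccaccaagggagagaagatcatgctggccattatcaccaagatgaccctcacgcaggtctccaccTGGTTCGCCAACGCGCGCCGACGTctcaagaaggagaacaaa
Irx3: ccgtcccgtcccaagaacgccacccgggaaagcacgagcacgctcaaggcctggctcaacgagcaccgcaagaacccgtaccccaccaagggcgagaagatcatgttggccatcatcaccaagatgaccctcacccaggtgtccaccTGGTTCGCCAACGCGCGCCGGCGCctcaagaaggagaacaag
Irx1: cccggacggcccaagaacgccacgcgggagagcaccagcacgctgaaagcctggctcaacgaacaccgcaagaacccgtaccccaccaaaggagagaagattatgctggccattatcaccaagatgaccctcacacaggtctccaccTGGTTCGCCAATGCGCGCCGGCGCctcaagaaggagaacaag
Irx6: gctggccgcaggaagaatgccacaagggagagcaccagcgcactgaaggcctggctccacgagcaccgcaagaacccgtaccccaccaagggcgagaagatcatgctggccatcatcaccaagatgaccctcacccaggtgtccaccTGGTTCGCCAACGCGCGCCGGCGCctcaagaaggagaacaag
Irx4: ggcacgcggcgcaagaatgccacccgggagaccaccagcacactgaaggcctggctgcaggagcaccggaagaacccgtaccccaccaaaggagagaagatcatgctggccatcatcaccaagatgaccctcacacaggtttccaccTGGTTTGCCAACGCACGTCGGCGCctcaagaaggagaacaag

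The homeobox of Irx5 lies at chr8:92359627-92359815 (plus strand, exon 2 of 5 in the longest coding transcript), and that of Irx2 at chr13:72630664-72630852 (plus strand, exon 2 of 5). They differ at 18 of 189 bases and at 0 of 63 encoded residues. The homeobox of Irx3 at chr8:91800496-91800684 (minus strand, exon 2 of 4) and that of Irx1 at chr13:71959992-71960180 (minus strand, exon 2 of 4) differ at 19 bases and 1 residue. Irx6 (chr8:92677236-92677424, plus strand, exon 4 of 6) and Irx4 (chr13:73267523-73267711, plus strand, exon 5 of 6) differ at 22 bases and 5 residues. Within the IrxB cluster, Irx3 differs from Irx5 at 6 residues and from Irx6 at 5, and Irx5 differs from Irx6 at 8. Irx5 and Irx3 thus have their closest homeodomain in the other cluster, on another chromosome, and Irx6 is closest to Irx1, differing at 4 residues.

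The IrxB genes had higher levels in HC than in PC, whereas the IrxA genes were listed at 0 in HC and near 0 in PC. The levels that follow are TPM, the deposited transcript abundance scaled to length and to a fixed total, summed over the transcripts of a gene. Irx5 (chromosome 8, 92357625 to 92376286) had 24.1 and 59.0 TPM in HC replicates 3 and 4, against 0.534 and 2.2 TPM in PC replicates 1 and 2. Irx3 (chromosome 8, 91798525 to 91802067) had 9.59 and 15.0 TPM in HC, against 0.489 and 0.589 TPM in PC. Irx6 (chromosome 8, 92674288 to 92680956) had 1.98 and 3.34 TPM in HC, against 0.095 and 0.18 TPM in PC. In each of the 3 genes both HC libraries lay above both PC libraries, and for Irx5 the gap within PC was wide.

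**Figure D1:**
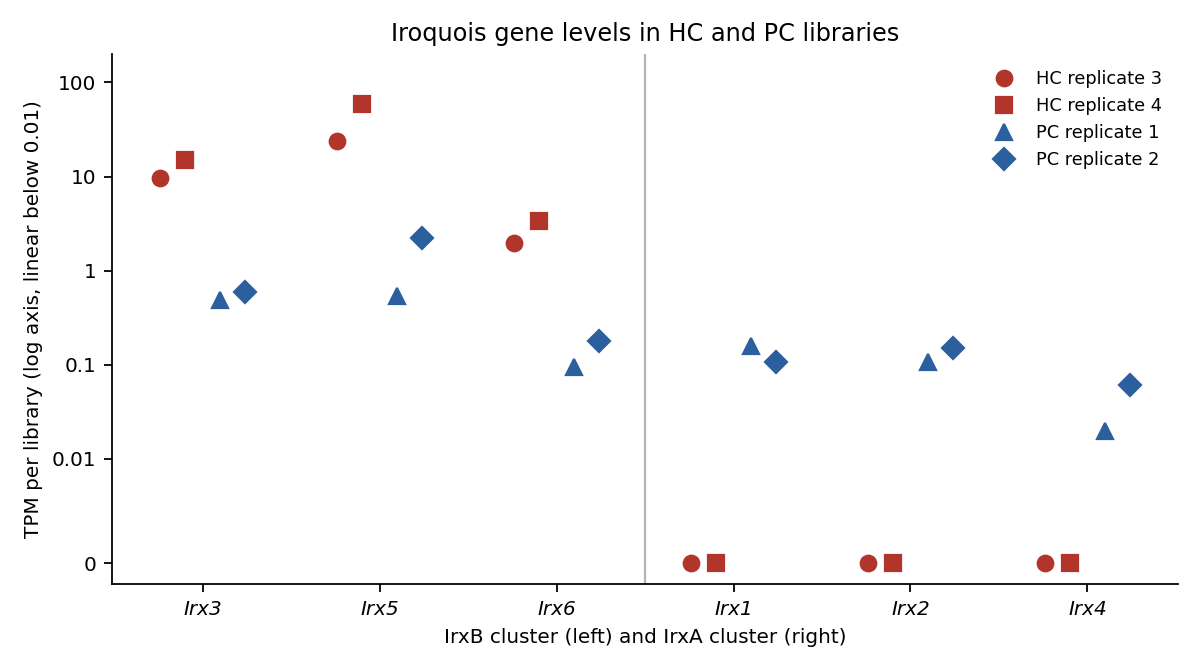
TPM of the 6 Iroquois genes in each library, HC in red and PC in blue, 1 point per library, on a log axis that is linear below 0.01. The 2 HC points of Irx3, Irx5 and Irx6 lie above both PC points, and those of Irx1, Irx2 and Irx4 lie at 0.

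The 3 IrxA genes gave few reads. Irx1 (chromosome 13, 71957921 to 71963723) had 0 counts in both HC libraries, against 8 and 7 counts in PC replicates 1 and 2. Irx2 (chromosome 13, 72628820 to 72634198) had 0 in both HC libraries, against 6 and 11 counts in PC. Irx4 (chromosome 13, 73260479 to 73269608), known for its part in the ventricles of the mouse heart, had 0 in both HC libraries, against 1 and 4 counts in PC. None of the 3 reached the minimum for the test, 0.385 CPM (counts scaled to library size) in at least 2 libraries.

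The depth limits what the zeros say. A count of 0 allows up to 3 counts, which is, on the CPM used from here on (scaled between libraries by TMM, a trimmed mean of log ratios), 0.244 CPM in HC replicate 3 and 0.135 CPM in HC replicate 4. PC had 0.232 and 0.182 CPM of Irx1 and 0.174 and 0.286 CPM of Irx2, so HC replicate 3 on its own could not show that Irx1 is absent at the level seen in PC. Against a floor of 3 counts over both HC libraries, Irx1 was at least 2.37-fold lower and Irx2 at least 2.68-fold lower in HC. Summed over the cluster, 0 counts in HC stood against 37 in PC, at least 5.84-fold lower, a bound that was 2.08 without HC replicate 4 and 3.76 without HC replicate 3. Irx4, with 5 counts over PC (0.0686 CPM), lay under the HC floor of 0.0869 CPM and is given no fold. The bounds cover counting error of the HC zeros alone, with the PC counts taken as exact. They do not cover PCR copies of a molecule, which are counted separately.

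For the IrxB genes, the same TMM-scaled CPM gives the comparison. Irx3 had 30.0 and 31.2 CPM in HC, against 0.843 and 1.17 CPM in PC, a log2 fold change of HC over PC of 4.92 ± 0.44 (SE, n = 2 per group). Its HC libraries were nearly equal on this scale, and its PC libraries were close as well. Irx5 had 70.6 and 110.0 CPM in HC, against 0.814 and 3.87 CPM in PC, a log2 fold change of 5.26 ± 0.81. Irx6 had 6.74 and 7.74 CPM in HC, against 0.203 and 0.441 CPM in PC, a log2 fold change of 4.47 ± 0.81.

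All 3 IrxB genes were called higher in HC by edgeR's quasi-likelihood test at an adjusted p threshold of 0.05 over 16607 genes, of which 2.75% were called higher and 4.71% in either direction. Both HC libraries lay above both PC libraries for these 3, as they did for 27.7% of all genes tested, while 33.3% of genes had both HC libraries below both PC libraries. Nothing is read from either count, because the family was chosen with this contrast in view, and Irx6 reached the test minimum in both HC libraries but in only 1 PC library. By size of fold, Irx5, Irx3 and Irx6 stood at ranks 29, 44 and 76 of the 457 genes called higher.

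Among the fits with 1 library left out, the IrxB folds moved most when it was a PC library. Irx5 was at 6.76 without PC replicate 2 and at 4.51 without PC replicate 1, and its CPM was 4.75 times as high in PC replicate 2 as in PC replicate 1. Irx6 was at 5.09 without PC replicate 2 and at 3.98 without PC replicate 1, and its call was lost without either of them. Irx3 ranged from 4.67 to 5.14 over the libraries left out in turn. Without HC replicate 3, Irx3, Irx5 and Irx6 were at 4.92, 5.51 and 4.53, and without HC replicate 4 at 4.84, 4.86 and 4.31. Scaling by library size alone and limma-trend on log2(TPM + 1) called 0 of all 16607 genes, these 3 among them. Library size alone gave Irx3, Irx5 and Irx6 at 4.67, 5.07 and 4.23, and limma-trend gave them at 3.08, 4.13 and 1.66. DESeq2, which called 1651 genes higher, kept the 3 calls, at 4.95, 5.29 and 4.5. A length offset ended the call of Irx6.

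**Figure D2:**
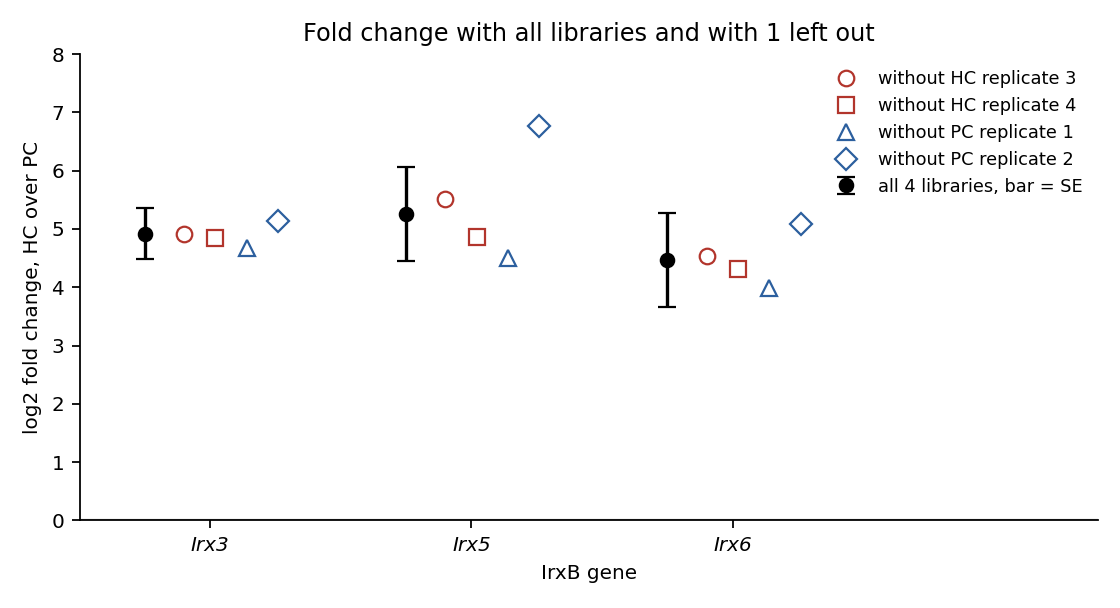
Log2 fold change of HC over PC for the 3 IrxB genes with all 4 libraries (black, bars are SE) and with each library left out (open symbols). Irx5 moves most, from 4.51 without PC replicate 1 to 6.76 without PC replicate 2.

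The order of the levels differed in sharpness between the groups. In HC, Irx5 at 41.6 ± 24.7 TPM (SD, n = 2) stood above Irx3 at 12.3 ± 3.84 TPM, and Irx3 above Irx6 at 2.66 ± 0.957 TPM, with no overlap between neighbours in that order. In PC, Irx5 at 1.37 ± 1.18 TPM and Irx3 at 0.539 ± 0.0712 TPM overlapped. Irx6 at 0.137 ± 0.0598, Irx1 at 0.132 ± 0.0358 and Irx2 at 0.129 ± 0.0319 TPM overlapped one another in PC, and Irx4 lay below them at 0.0403 ± 0.0292 TPM. Of the genes tested, 87.5% had a lower mean TPM than Irx5 in HC, and 21.8% had a lower one in PC.

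The make-up of the summed IrxB level differed most in 1 PC library. Irx5 made 67.6% and 76.3% of the summed IrxB TPM in HC, against 47.8% and 74.1% in PC replicates 1 and 2. Irx3 made 26.9% and 19.4% in HC, against 43.7% and 19.8% in PC. The ratio of Irx5 to Irx3, per length, was 2.51 and 3.93 in HC and 1.09 and 3.74 in PC, so PC replicate 2 lay within the HC range and PC replicate 1 below it. The summed IrxB TPM was 35.7 and 77.4 in HC and 1.12 and 2.97 in PC, a log2 ratio of 4.79.

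Both annotated transcripts of each IrxB gene took reads, and the split between them differed between libraries. Irx3-202 starts upstream of Irx3-201 and encodes 507 residues, against 522 for Irx3-201. Irx3-201 took 95.1% and 23.2% of the TPM of Irx3 in HC replicates 3 and 4, and 0% in both PC libraries. The HC libraries thus disagreed on which transcript led. Only 44 stretches of 31 bases set Irx3-201 apart from Irx3-202, of 2580 in the transcript.

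Irx5-201, which has 3 exons and encodes 484 residues, took 93.0% and 95.9% of the Irx5 TPM in HC and 100% in both PC libraries. Irx5-202, which encodes 516 residues and runs on to a downstream last exon, took the rest in HC, 63.5 and 104.3 estimated counts, and 0 in PC. For Irx6, transcript Irx6-202 took 100% and 66.1% of the TPM in HC, and Irx6-201 took 100% of it in PC, where the gene had 7 and 17 counts. Only 28 stretches of 31 bases set Irx6-202 apart from Irx6-201, of 2799 in the transcript. The proteins encoded by the Irx6 transcripts have 438 and 439 residues. Irx5 was the only IrxB gene whose leading transcript was the same in all 4 libraries.

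**Figure D3:**
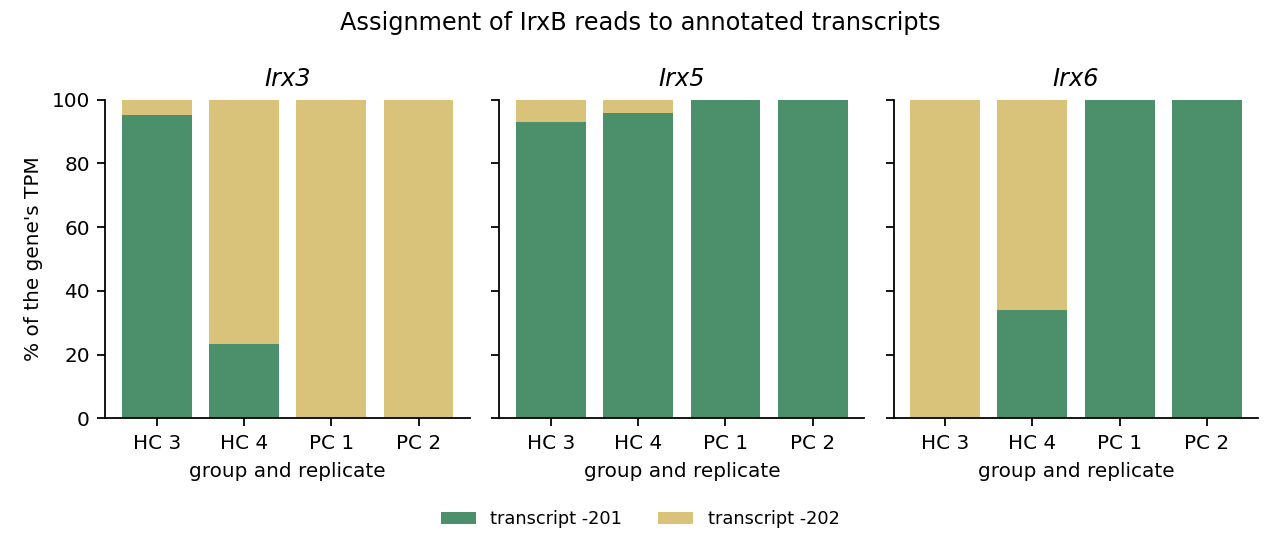
Share of each IrxB gene's TPM assigned to its 2 transcripts (lower number green, higher number sand) in each library, HC left of PC. Irx5-201 leads in all 4 libraries, while Irx3 switches between the HC libraries, from 95.1% of Irx3-201 in replicate 3 to 23.2% in replicate 4.

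Shared sequence touched a small part of each gene. Of the 31-base stretches in the transcripts of Irx5, 2.03% also occur in another annotated gene, in Irx3 6.08% and in Irx6 5.49%. Of the 168 such stretches of Irx3, 94 occur in the antisense gene Irx3os. Of the 185 of Irx6, 99 occur in the antisense gene Gm45505. Irx6 shares 86 of its 3368 stretches with other Iroquois genes. Irx2 shares 35 of its 3305 with Irx5. How reads from shared stretches were assigned was not tested. Exons of the antisense gene Irx3os overlap 124 bases of Irx3, and those of the antisense gene Gm45505 overlap 152 bases of Irx6. Neither antisense gene is among the genes that the transcript tables hold, so neither has a level here. No source used here gives the strand setting, so reads from these bases cannot be told apart between the partners.

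The genes around the clusters were read next. Gaps of 556 kb between Irx3 and Irx5 and of 298 kb between Irx5 and Irx6 held 0 genes of the tables, and the gaps of 665 and 626 kb of the IrxA cluster held 0 protein-coding genes. Within 1 Mb of an IrxB gene, 14 other genes were tested, of which 1 was called higher and 0 lower with edgeR, beside 2.75% higher and 1.96% lower of all genes. Their median log2 fold change was -0.78, against -0.04 over all genes tested, and it was the same with the 2 genes that had 0 counts in HC set at their bound. At an unadjusted p under 0.05, 1 was higher and 5 lower, beside 2106 higher and 2386 lower of all 16607 genes. DESeq2 called 1 higher and 3 lower, beside 1651 and 1468 of all genes. With limma-trend 0 were called in either direction, as over all genes.

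The gene called was Aktip, which encodes a partner of the AKT kinase and lies 599 kb from Irx3. It had 46.2 and 52.5 CPM in HC, against 11.3 and 15.2 CPM in PC, a log2 fold change (HC over PC) of 1.89 ± 0.33 (edgeR adjusted p = 0.0425), and with either PC library left out it was no longer called (0.239 for replicate 1, 0.0529 for replicate 2). Fto, the RNA demethylase gene whose introns hold enhancers of Irx3 and Irx5, lies 130 kb from Irx3. It had 78.9 and 67.8 CPM in HC, against 150.0 and 161.0 CPM in PC. Its log2 difference was -1.08 ± 0.28 (not called, edgeR adjusted p = 0.0837). The difference was -1.23 without HC replicate 3 and -1.02 without HC replicate 4. Mmp2, a gelatinase gene 146 kb from Irx6, had a log2 fold change of -1.64 ± 0.33 (not called, edgeR adjusted p = 0.0529). It was at -1.35 and -1.94 without PC replicates 1 and 2, and at -1.7 and -1.65 without HC replicates 3 and 4. The cilium gene Rpgrip1l had 0.52 ± 0.32 (edgeR adjusted p = 0.358).

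Around the IrxA cluster, 14 genes were tested and edgeR called 0 in either direction, beside 4.71% of all genes. At an unadjusted p under 0.05, 0 were higher and 4 lower, beside 2106 and 2386 of all 16607 genes. DESeq2 called 0 higher and 2 lower, beside 1651 and 1468 of all genes, and limma-trend 0. The median was -0.51. With 1 library left out, the median ranged from -0.85 to -0.5 around IrxA and from -0.99 to -0.42 around IrxB.

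**Figure D4:**
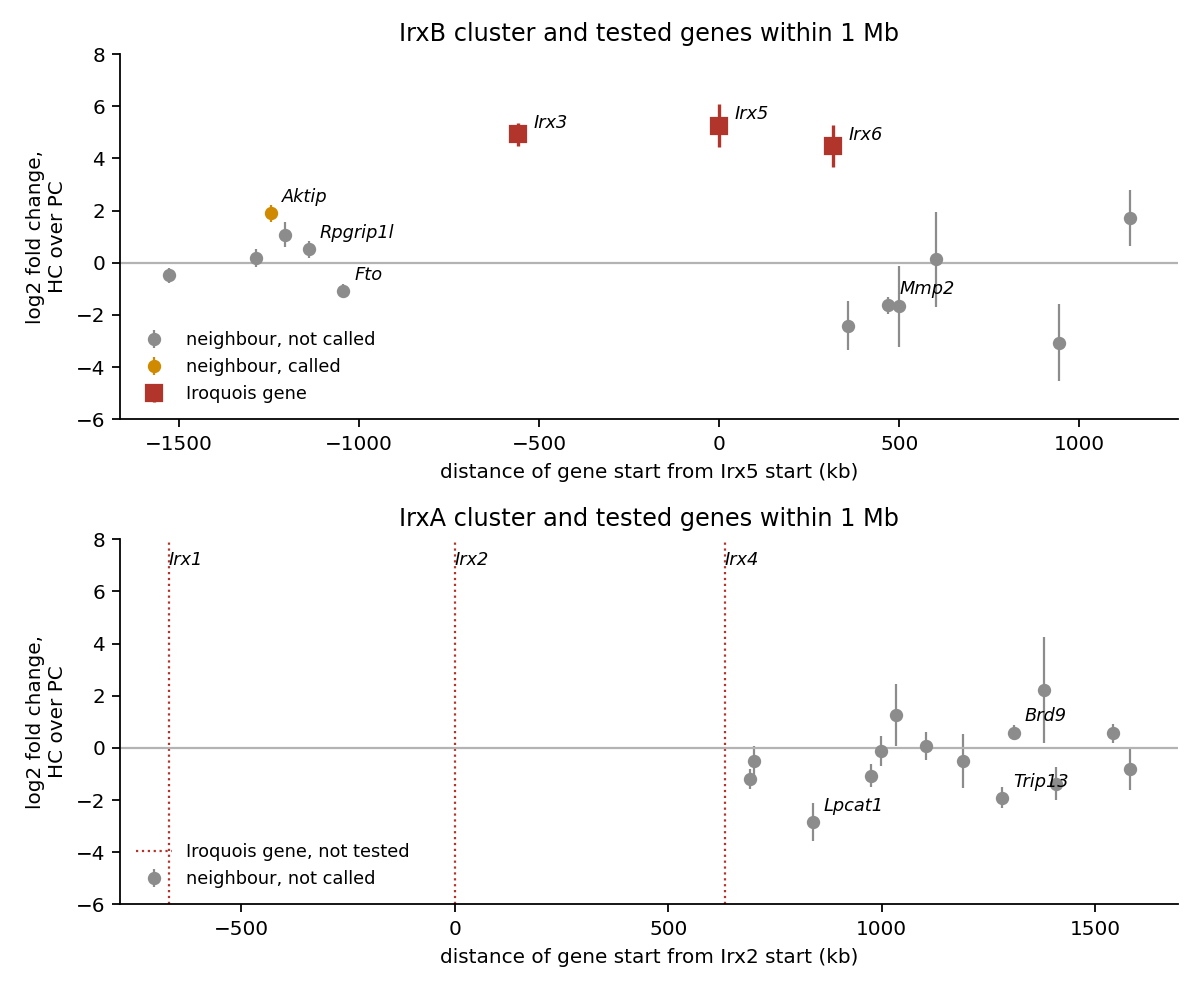
Log2 fold change of HC over PC (points, bars are SE) of the tested genes within 1 Mb of each cluster, by distance of the gene start from the start of Irx5 (top) or Irx2 (bottom), in kb, with genes at 0 counts in a whole group left out. The 3 IrxB genes lie between 4.47 and 5.26, and the highest called neighbour, Aktip, at 1.89.

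The other TALE genes are relatives that share the loop and include partners of Hox proteins. Of 12 tested, 0 were called in either direction by edgeR, beside 4.71% of all genes. At an unadjusted p under 0.05, 2 were higher and 3 lower, beside 2106 and 2386 of all 16607 genes. DESeq2 called 1 higher and 3 lower, beside 1651 and 1468 of all genes, and limma-trend 0. Their log2 fold changes ran from -1.44 to 1.73 with a median of 0.11, all short of the IrxB values. Mkx, the tendon regulator and a close relative of the Iroquois genes, had 8.2 and 5.81 CPM in HC, against 15.8 and 22.1 CPM in PC, a log2 fold change (HC over PC) of -1.44 ± 0.43 (edgeR adjusted p = 0.103). Meis1 had -1.20 ± 0.35 (edgeR adjusted p = 0.0984). Mkx was at -1.74 without HC replicate 3 and at -1.25 without HC replicate 4, and Meis1 at -1.37 and -1.13. With 1 library left out, the median of the TALE list ranged from -0.32 to 0.2.

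Groucho corepressors, which several homeodomain repressors recruit, had 0 of 6 called by edgeR, beside 4.71% of all genes. At an unadjusted p under 0.05, 0 were higher and 1 lower, beside 2106 and 2386 of all 16607 genes. DESeq2 also called 0 higher and 1 lower, beside 1651 and 1468 of all genes, and limma-trend called 0. Their median was -0.38. Tle4 had 15.3 and 21.7 CPM in HC, against 50.2 and 40.2 CPM in PC. Its log2 fold change (HC over PC) was -1.28 ± 0.34 (edgeR adjusted p = 0.0873). Tle4 was at -1.09 without HC replicate 3 and at -1.6 without HC replicate 4. With 1 library left out, the median of the Groucho list ranged from -0.67 to 0.13.

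Of 6 genes reported as partners or targets of Irx3 or Irx5 in other tissues, 5 were tested, 1 was called higher and 0 lower, beside 2.75% higher and 1.96% lower of all genes. Their median was 1.81, against -0.04 over all genes. The gene called was Cxcl12, a chemokine gene repressed by Irx5 in frog embryos. Cxcl12 had 20.1 and 19.4 CPM in HC, against 1.57 and 1.92 CPM in PC, a log2 fold change (HC over PC) of 3.50 ± 0.44 (edgeR adjusted p = 0.0359). It was at 3.32 to 3.62 with each library left out in turn. It was not called with library size alone or limma-trend, which called 0 of all genes. The part of Irx5 in the Cxcl12 values was not tested. Gata3 and Trps1, zinc finger factors that bind the human IRX5 protein, had 2.25 ± 0.72 and 0.76 ± 0.33 (edgeR adjusted p = 0.118 and 0.212). Gata3 was at 2.74 without HC replicate 3 and at 1.37 without HC replicate 4. With 1 library left out, the median of this list ranged from 0.9 to 1.99.

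Of 16 limb bud patterning genes, the early setting of Irx3 and Irx5, 15 were tested. With edgeR 0 were called, beside 4.71% of all genes, and the median was -0.16. At an unadjusted p under 0.05, 2 were higher and 2 lower, beside 2106 and 2386 of all 16607 genes. DESeq2 called 1 each way, beside 1651 higher and 1468 lower of all genes, and limma-trend 0. Hand1, a helix-loop-helix factor of the limb and heart, had 20.7 and 45.3 CPM in HC, against 0.232 and 1.92 CPM in PC. Its log2 difference was 4.92 ± 1.03 (not called, edgeR adjusted p = 0.0552), and 4.06 to 7.09 when any 1 library was left out. With 1 library left out, the median of the limb bud list ranged from -0.51 to 0.4.

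Genes tied to the bone-forming and fat-forming fates were read from a pair of lists. The bone-forming list shares Alpl, Ibsp and Spp1 with the hypertrophic markers given below, and Col1a1 with the perichondrium markers. A bone-forming fate and the cell type that was dissected thus cannot be told apart by it. The part of Irx3 or Irx5 in these values was not tested. Of 18 bone-forming genes 17 were tested, 4 were called higher and 0 lower, beside 2.75% of all genes, with a median of 3.48. Phex, which acts in phosphate balance, had 159.0 and 242.0 CPM in HC, against 3.52 and 12.4 CPM in PC, a log2 fold change (HC over PC) of 4.65 ± 0.70 (edgeR adjusted p = 0.037). Both HC libraries lay far above both PC libraries. The phosphatase gene Alpl had 4.56 ± 0.69 (edgeR adjusted p = 0.037), and the homeobox gene Dlx3 had 2.31 ± 0.41 (0.0427). With PC replicate 1 left out, Phex was at 3.97 and Alpl at 3.87, and with PC replicate 2 left out Phex was at 5.8 and Alpl at 5.77. With 1 library left out, the median of the bone-forming list ranged from 2.66 to 4.03.

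Of 18 fat cell genes 14 were tested, with 1 called higher and 1 lower, beside 2.75% and 1.96% of all genes, and a median of 0.55. The lipase gene Lpl had 108.0 and 207.0 CPM in HC, against 29.6 and 39.4 CPM in PC, a log2 difference of 2.19 ± 0.42 (edgeR adjusted p = 0.0479), which was 1.6 without HC replicate 4. The fatty acid synthase gene Fasn had 205.0 and 241.0 CPM in HC, against 826.0 and 647.0 CPM in PC, a change of -1.73 ± 0.33 (edgeR adjusted p = 0.0479). Neither passed without PC replicate 1 (edgeR adjusted p = 0.0679 and 0.112). Pparg, the main switch of fat cell formation, had 1.14 ± 0.59 (edgeR adjusted p = 0.282). It was at 0.71 without HC replicate 3 and at 1.42 without HC replicate 4. Of the genes of mature fat cells, Fabp4 had 44 and 14 counts in HC, against 18 in each PC library, and 2.06 ± 1.21 (edgeR adjusted p = 0.336). Adipoq was listed at 0 in both HC libraries, against 0 and 4 counts in PC, and Cidec was at 0 in all 4. Plin1 had 2 and 5 counts in HC, against 18 and 12 in PC, and Lep had 25 and 0 in HC, against 0 and 7 in PC. With 1 library left out, the median of the fat cell list ranged from -0.2 to 0.64.

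Genes with a profile most like an IrxB gene were taken as the 3 with the smallest Euclidean distance between centred log2 CPM values over the 4 libraries, among 12516 protein-coding genes. For Irx5 they were the polo-like kinase gene Plk2, Map3k7cl and the phosphodiesterase gene Pde11a, at distances of 0.26, 0.34 and 0.35, against a median of 6.01. Pde11a had 47.5 and 92.7 CPM in HC, against 0.465 and 2.88 CPM in PC, close to the pattern of Irx5 in all 4 libraries. For Irx3 they were the sodium-proton exchanger gene Slc9a2, Art5 and the phospholipase gene Pla2g10, at 0.31, 0.37 and 0.39. Art5 had 0.0291 and 0.0519 CPM in PC, under the floor of 3 counts there.

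For Irx6 they were the calcium-binding protein gene Ocm, the ion channel gene Cnga1 and the mucin gene Muc5b, at 0.2, 0.2 and 0.24. The IrxB genes were further from one another than from these nearest genes, but well under the median distance. Seen from Irx3, Irx6 stood at rank 14 (distance 0.67) and Irx5 at rank 168 (1.47) of 12516 genes, against a median of 5.09. These distances rest on 4 libraries in 2 groups and are a description.

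The labelled cell types were checked on their markers. The 8 hypertrophic markers summed to 13976 and 23756 TPM in HC, against 316 and 1196 TPM in PC, while the 8 chondrocyte markers, Col2a1 among them, summed to 5058 and 9413 TPM in HC, against 17770 and 11528 TPM in PC. No marker of either list was at 0 in any library. Of the 8 hypertrophic markers all but Pth1r were higher in PC replicate 2 than in PC replicate 1, as was Irx5, and the part of the one in the other was not tested. The ratio of PC replicate 2 to PC replicate 1 in CPM was 8.03 for Col10a1, the collagen of the hypertrophic zone, 14.0 for Ibsp, 13.8 for Mmp13, 3.71 for Alpl, 1.58 for Mef2c and 1.56 for Ihh. Spp1 had 19.3 CPM in PC replicate 1 and 280.0 CPM in PC replicate 2, and Pth1r had 69.7 and 53.6 CPM in the same libraries. The same ratio was 4.75 for Irx5, 2.17 for Irx6 and 1.39 for Irx3. Markers of other cell types were also higher in PC replicate 2. Their ratios were 3.97 for Cdh5 (endothelium), 2.78 for Hbb-bt (red blood cell), 2.53 for Myh3 (muscle), 2.26 for Cd68 (macrophage) and 1.98 for Col1a1. Some markers of these lists went the other way, such as endothelial Pecam1, with 20.3 CPM in PC replicate 1 and 7.22 CPM in PC replicate 2.

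Markers of other cell types differed between the groups beside the IrxB genes. In these bulk samples a change in the share of a cell type and a change in RNA per cell cannot be told apart. Of 6 endothelial markers 2 were called higher, beside 2.75% of all genes (summed 70.4 and 66.3 TPM in HC, 18.8 and 13.7 in PC), as were 1 of 4 macrophage markers tested (86.4 and 48.5 in HC, 6.82 and 12.3 in PC) and 3 of 6 red blood cell markers (454.0 and 680.0 in HC, 68.1 and 101.0 in PC). Of 8 perichondrium and fibroblast markers 2 were higher (1527 and 902.0 TPM in HC, 444.0 and 440.0 in PC), and of 6 skeletal muscle markers tested 1 was higher (174.0 and 61.6 in HC, 38.9 and 63.1 in PC). The macrophage marker C1qa, the muscle regulator Myod1, the epidermal keratin Krt5 and the nerve marker Foxd3 were listed at 0 in both HC libraries. The part of these cells in the IrxB values was not tested.

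The HC libraries were also set against each other. The ratio of HC replicate 4 to HC replicate 3 in CPM was 1.04 for Irx3, 1.56 for Irx5 and 1.15 for Irx6. It was 0.34 for the bone and fibrous tissue collagen Col1a1, 0.497 for the endothelial cadherin Cdh5, 0.394 for the macrophage marker Cd68 and 0.244 for the embryonic myosin Myh3. It was 0.924 for the globin gene Hbb-bt, and the globin gene Hba-a1 had 3.65 CPM in HC replicate 3 and 5.94 CPM in HC replicate 4. It was 1.51 for Col10a1 and 0.166 for Ihh, the signal of prehypertrophic cells. The perichondrium and fibroblast markers were split. Col3a1, Postn, Dcn, Lum and Prrx1 were lower in HC replicate 4, as Col1a1 was. Twist1 had 32.1 CPM in HC replicate 3 and 32.4 CPM in HC replicate 4, and Pdgfra had 68.0 and 79.5 CPM. Joint, tendon, epidermal and nerve markers had 0 called higher by edgeR, beside 2.75% of all genes. Of 9 joint markers tested 1 (Sfrp2) was called lower, as was 1 of 4 nerve markers tested, beside 1.96% of all genes. Joint markers had 103.0 and 197.0 TPM in HC and 131.0 and 93.8 in PC. Tendon markers had 131.0 and 77.6 TPM in HC and 61.1 and 82.5 in PC, epidermal markers 4.09 and 10.4 in HC and 8.66 and 5.81 in PC, and nerve markers 1.25 and 2.22 in HC and 8.17 and 6.46 in PC.

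**Figure D5:**
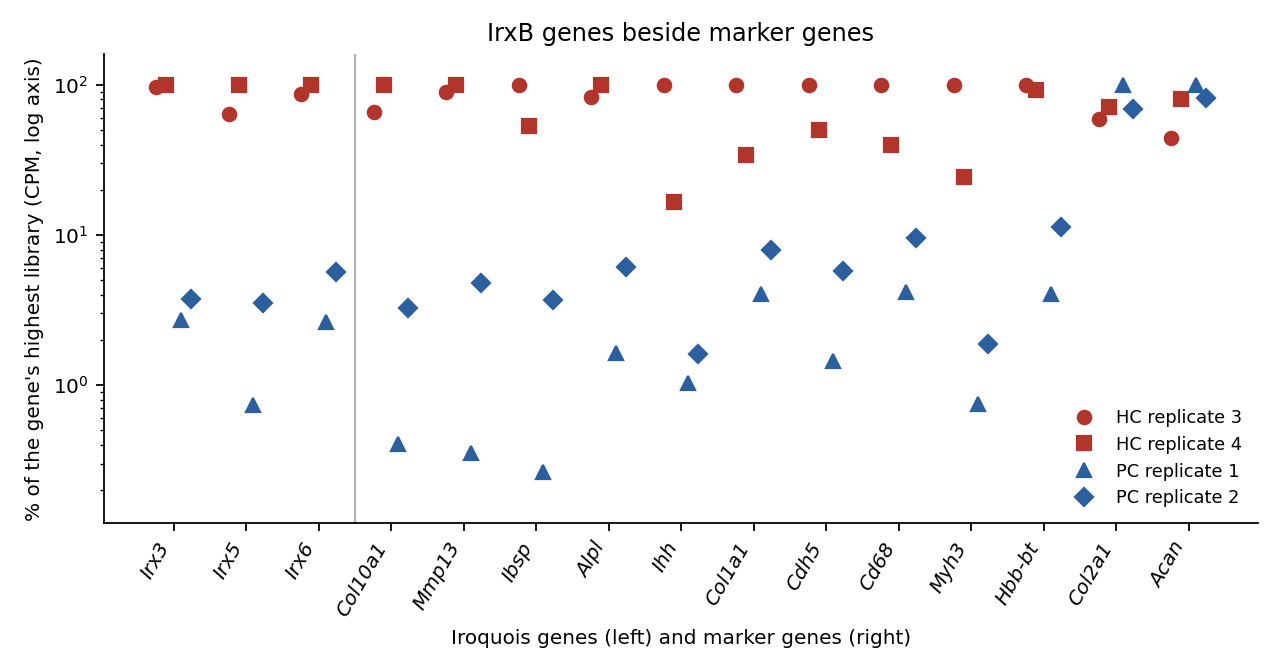
CPM of the IrxB genes and of marker genes in each library, as a percentage of the gene's highest library on a log axis, HC left of PC for each gene. All genes shown but Col2a1 and Acan are lower in PC replicate 1 than in PC replicate 2. Ibsp, Ihh, Col1a1, Cdh5, Cd68, Myh3 and Hbb-bt are lower in HC replicate 4 than in HC replicate 3.

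Depth differed between the groups. Libraries held 15246529 and 21866266 estimated counts in HC, against 30373440 and 36644496 in PC. Genes with any count numbered 16900 and 17878 in HC and 21231 and 21024 in PC. Mitochondrial transcripts took 20.16% and 14.11% of counts in HC, against 8.81% and 13.15% in PC. Each HC library held fewer counts than each PC library.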

How the data were processed

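Estimated counts and TPM per transcript were made by the authors with Trimmomatic 0.36 and kallisto 0.43.1 on build mm10, per the submitters' processing notes; no source used here gives the annotation release or strand setting. The deposited effective length (in bases, not a score or ratio) was used for 1 alternative. Of 109282 transcripts 107987 matched GENCODE M21 by identifier. The estimated counts of a gene's transcripts were added up and the sum rounded. Genes passing filterByExpr (16607) were scaled with TMM and tested for HC against PC with edgeR 4.0.16 (quasi-likelihood F-test, Benjamini-Hochberg over all genes, threshold 0.05, R 4.3.3). Steps were tested on simulated data. DESeq2 1.42.0, limma-trend 3.58.1 on log2 of deposited TPM plus 1 or 0.1, other scalings, filters, a length offset and each library left out were alternatives. A floor of 3 counts bounds zeros. Homeobox coordinates come from GENCODE M21. Profile distances used log2 CPM with a prior count of 2, genes of mean TPM of at least 1 and no predicted models. The members and lists were chosen with earlier results of these data known. Named are all members, the 3 nearest profiles of each tested member, and from each list the genes called, of which 1 is not reported here; Fto, Mmp2, Rpgrip1l, Mkx, Meis1, Tle4, Gata3, Trps1, Hand1, Pparg, Fabp4, Adipoq, Cidec, Plin1, Lep and single cell type markers were chosen after their values were seen.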

Additional observations from a re-analysis of the deposited data

How the results depend on the processing

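No paired analysis was possible because the replicate numbers of HC and PC are not shared. Genes called higher and lower numbered 457 and 325, and 1651 and 1468 with DESeq2, 963 and 965 with no low-count filter, 226 and 113 with the length offset, and 0 and 0 with library size alone (1469 and 2925 at an unadjusted p under 0.05) or limma-trend at pseudocount 1 (1040 and 3220) or 0.1 (1011 and 2982). Without single libraries they ranged from 379 to 3331 higher and from 257 to 3775 lower. Library size alone moved the median of all genes to -0.29, from -0.04 and gave Irx3, Irx5 and Irx6 at 4.67, 5.07 and 4.23, limma-trend on log2(TPM + 1), where that median was -0.39, 3.08, 4.13 and 1.66, and on log2(TPM + 0.1), where it was -0.59, 4.25, 4.97 and 3.52, all uncalled. The length offset left Irx6 uncalled at 4.67. The larger pseudocount lowers these values by its construction; the other causes were not tested. Over single libraries left out, Irx3 ranged from 4.67 to 5.14, Irx5 from 4.51 to 6.76, Irx6 from 3.98 to 5.09, the IrxB log2 ratio from 4.12 to 5.66 and the IrxA bound from 2.08 to 6.57. Every direction of an IrxB gene was kept in these settings.

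Library size alone and both limma-trend fits gave 0 called in each list. DESeq2, no filter, the 1 CPM filter and the length offset gave 15, 14, 7 and 2 bone-forming genes higher. DESeq2 gave 3 fat cell genes higher and the length offset 0 higher and 0 lower. DESeq2 gave 1 TALE gene higher and 3 lower, 2 partner genes higher, 1 limb bud gene each way, 1 Groucho gene lower, 2 IrxA neighbours and 3 IrxB neighbours lower. No filter gave 2 limb bud genes higher and 1 lower, and 2 neighbours lower around either cluster, and the 1 CPM filter 1 limb bud gene higher and 1 neighbour lower around either. Without single libraries the ranges were 0 to 2 higher and 0 to 3 lower for TALE, 1 to 2 higher for partners, 2 to 4 higher and 0 to 4 lower for limb bud, 0 to 6 higher and 0 to 4 lower for fat cell, 10 to 15 higher for bone-forming, 0 to 2 higher and 0 to 3 lower for Groucho genes, 0 to 1 higher and 1 to 4 lower for IrxA and 0 to 3 higher and 0 to 6 lower for IrxB neighbours. Rpgrip1l turned to -0.17 with the length offset and to -0.63 and -0.71 with limma-trend at the larger and smaller pseudocount.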
